A study of Mus musculus with 5 samples.

Results

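The 10 genes described here mark dividing cells: *Mki67*, *Top2a*, *Pcna*, *Mcm2*, *Stmn1*, *Birc5*, *Ccnb1*, *Cdk1*, *Tubb5* and *Ube2c*. They were taken by symbol from the gene-level count table, in which all 10 were found among 55487 genes. The table holds RNAseq of macrophages sorted from the aorta of male *Apoe*KO mice, which lack apolipoprotein E and form atherosclerotic plaques, after 8 weeks on chow and 10 weeks on a Western diet. There were 2 libraries labelled *Zeb1*WT/*Apoe*KO (WT1 and WT2), from mice with floxed *Zeb1* alleles (*Zeb1* fl/fl) and no Cre, and 3 labelled *Zeb1*∆M/*Apoe*KO (KO1, KO2 and KO3), in which *LysM*Cre, expressed from the *Lyz2* locus in myeloid cells, deletes the transcription factor gene *Zeb1*. Both genotypes are labelled as lacking *Apoe*. Viable CD45+ F4/80+ cells were sorted, with CD11b also named in the study's methods. The labels and the account of the sort give whole aortas as the source, and the account of the sequencing gives the aortic sinus. The study calls its replicates in general independent biological samples, and its methods describe mixing cells of 3 mice per genotype. Whether each library had its own pool of mice is not given, and p-values measure the spread between these libraries, part of which may be technical.

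Cells that divide pass through a phase of DNA synthesis and then mitosis, and many of the proteins needed are made in that window of the cell cycle. MCM2 is part of the helicase that opens DNA at replication origins, and PCNA is the sliding clamp that holds DNA polymerases on the template. Cyclin B1 and CDK1 form the kinase that starts mitosis, topoisomerase II alpha untangles the copied chromosomes, survivin (*Birc5*) guides the chromosome passenger complex, and UBE2C supplies ubiquitin to the anaphase-promoting complex that ends mitosis. Ki-67, the product of *Mki67*, coats mitotic chromosomes and is the usual stain for cycling cells. Stathmin (*Stmn1*) destabilises microtubules and TUBB5 is a beta tubulin that builds them, and both are also made in cells that do not divide. In plaques, macrophages come from recruited monocytes and also from local division, which these genes are used to score.

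Promoters of genes expressed at mitosis are known for a CHR element and for CCAAT boxes, and those of genes expressed at the start of DNA synthesis for E2F sites. *Mki67*, *Cdk1* and *Tubb5* are shown because as a set they differ in these elements and in counts. *Mki67* and *Cdk1* had equal numbers of CHR and CCAAT matches and differed in the E2F match. RefSeq (GRCm38.p6) gave a promoter window, 250 bases before to 50 after the start, for 9 of the 10 genes, *Stmn1* excepted. Below, only bases ahead of the annotated transcripts are printed, 5′ to 3′ on the gene's strand, with motif matches on either strand in capitals. The CHR element was searched as the letters TTTGAA and in its variant TTTAAA. The CCAAT box was searched by its name's letters, and the E2F site as TTTGGCGC, TTTCCCGC, TTTCGCGC or TTTGCCGC. No one of these motifs contains another. The stretch of *Mki67* is chr7:135716380-135716629 on the minus strand, that of *Cdk1* is chr10:69352939-69353162 on the minus strand and that of *Tubb5* is chr17:35838307-35838551 on the minus strand.
Mki67: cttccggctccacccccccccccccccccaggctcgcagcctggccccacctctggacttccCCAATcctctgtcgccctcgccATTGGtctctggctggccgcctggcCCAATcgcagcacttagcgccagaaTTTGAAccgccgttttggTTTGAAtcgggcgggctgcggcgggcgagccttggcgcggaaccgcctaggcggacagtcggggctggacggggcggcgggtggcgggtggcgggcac
Cdk1: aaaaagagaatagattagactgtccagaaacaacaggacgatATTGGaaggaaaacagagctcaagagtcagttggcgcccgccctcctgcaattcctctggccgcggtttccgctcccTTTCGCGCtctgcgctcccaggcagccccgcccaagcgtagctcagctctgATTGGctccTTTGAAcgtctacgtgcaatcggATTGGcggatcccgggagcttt
Tubb5: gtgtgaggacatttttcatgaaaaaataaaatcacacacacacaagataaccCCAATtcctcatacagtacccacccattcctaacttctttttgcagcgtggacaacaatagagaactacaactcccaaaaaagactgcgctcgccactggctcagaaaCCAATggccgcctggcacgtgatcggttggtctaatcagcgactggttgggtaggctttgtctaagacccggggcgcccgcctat

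CHR matches were found in 7 of the 9 whole windows, and in 27.6% of the 32851 RefSeq promoters of the same length. CCAAT was found in 8 of 9, against 37.4% of all promoters, and both together in 6 of 9, against 10.7%. An E2F match was found in 1 of 9, that of *Cdk1*, against 2.26%. *Mki67* held 2 CHR and 3 CCAAT matches, *Cdk1* 2 CHR and 3 CCAAT matches, of which 1 CHR match lies past the printed stretch, and *Tubb5* no CHR and 2 CCAAT matches. *Top2a* held 2 CHR and 6 CCAAT matches, *Ube2c* 1 and 6, *Ccnb1* 1 and 2, *Mcm2* 1 and 1, *Birc5* 1 and 0, and *Pcna* 0 and 1. A match of letters is a description of the sequence and not a binding site, and no binding was measured here.

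The 5 libraries were unlike each other in ways that bear on every value given for these genes. Total counts ran from 20118545 to 50649912, and 3 counts, above which a gene was taken as detected, came to between 0.0592 and 0.149 CPM, the count after scaling for library size. Such limits account for counting error alone, because PCR copies of a molecule are read more than once. KO1 stood apart, with over 3 counts for 16423 genes against 5009 to 6931 in the others, but with 100 counts or more for 870 genes against 1714 to 4421. Of 1138 olfactory receptor genes, a family not known as macrophage genes, 423 had over 3 counts in KO1 and 12 to 120 in the others. *Zeb1* had 0 counts in WT1, WT2, KO2 and KO3 and 22 in KO1, and a gene-level count does not show the floxed exon by itself, so it did not check the genotypes and each group is named here by its label. *Apoe* had 48 and 31 counts in WT1 and WT2 and 86, 0 and 4 in KO1, KO2 and KO3, over 3 counts in 4 libraries, and these too do not show which part of the gene was read. Of 10 macrophage markers, 3 had 100 counts or more in KO1 and 6 to 9 in the others, and *Cd68* and *C1qa* were at 0 in WT1.

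*Tubb5* and *Pcna* had the most reads of the 10 genes, and the genes of mitosis the fewest. Summed over the libraries, *Tubb5* had 64865 counts, *Pcna* 18839, *Stmn1* 12240 and *Mki67* 3744. *Mcm2* had 74, *Birc5* 18, *Cdk1* 12, *Ube2c* 11, *Top2a* 4 and *Ccnb1* 1. The counts thus fell into 4 genes that reached 100 in at least 1 library and 6 that reached it in none, and 7341 of all genes did so. None of the 10 was over 3 counts in all 5 libraries.

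**Figure D1:**
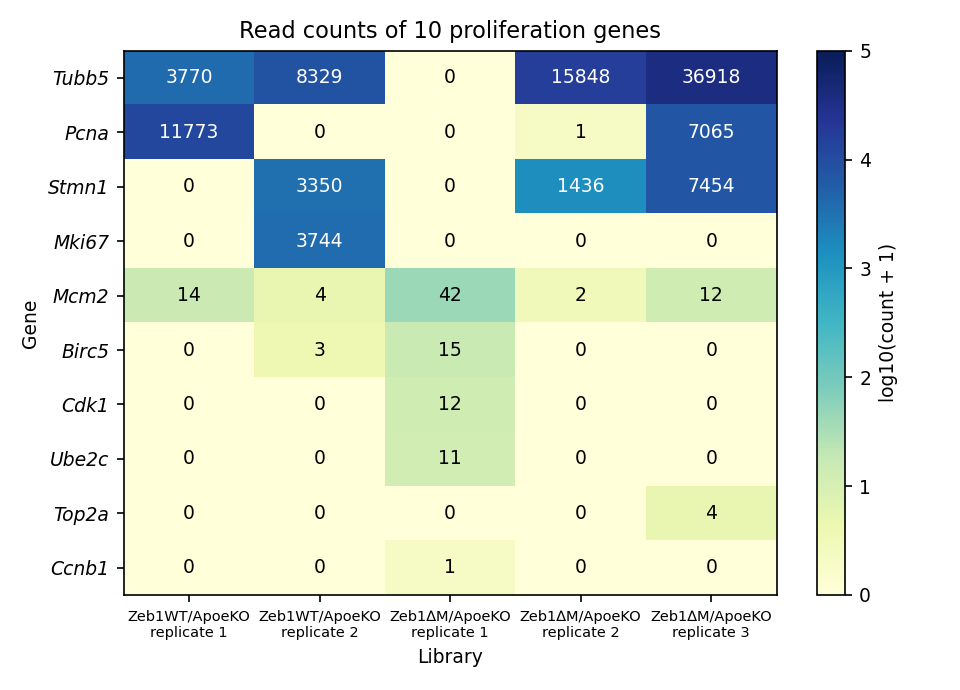
Read counts of the 10 proliferation genes (rows) in the 5 libraries (columns), printed in each cell and coloured by log10(count + 1). *Tubb5*, *Pcna*, *Stmn1* and *Mki67* exceed 100 counts in some libraries and 0 or 1 in others, while *Cdk1* and *Ube2c* have 12 and 11 counts in the first *Zeb1*∆M/*Apoe*KO library and 0 elsewhere.

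*Pcna* and *Mcm2* act at the replication fork. *Pcna* (chr2:132249162-132253314, minus strand, 6 exons) had 11773 counts in WT1 and 0 in WT2, and 0, 1 and 7065 counts in KO1, KO2 and KO3. One library of each genotype was therefore high and the rest were at or near 0, and the genotypes overlapped. In CPM scaled by edgeR's TMM factors, the level was 213 ± 301 (SD, n = 2) in the libraries labelled *Zeb1*WT/*Apoe*KO and 46.9 ± 81.2 (SD, n = 3) in those labelled *Zeb1*∆M/*Apoe*KO. The log2 fold change, *Zeb1*∆M/*Apoe*KO over *Zeb1*WT/*Apoe*KO, was −2.18 with a standard error of 4.50 (edgeR quasi-likelihood test, Benjamini-Hochberg adjusted p = 1).

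*Mcm2* (chr6:88883474-88898780, minus strand, 16 exons) had 14 and 4 counts in WT1 and WT2 and 42, 2 and 12 in KO1, KO2 and KO3. It was highest in KO1, and the other *Zeb1*∆M/*Apoe*KO libraries lay within or below the *Zeb1*WT/*Apoe*KO range. The level was 0.311 ± 0.276 CPM (SD, n = 2) against 1.25 ± 1.92 CPM (SD, n = 3), and the log2 fold change was 1.99 with a standard error of 4.32 (edgeR, adjusted p = 1). Both clamp and helicase thus differed between genotypes by less than the spread between libraries of 1 genotype. With limma-voom the log2 fold change of *Mcm2* was −0.082, so its sign turned. Leaving out KO1, *Mcm2* no longer passed the filter on low counts, and the log2 fold change of *Pcna* was −1.98. Leaving out WT1, the remaining *Zeb1*WT/*Apoe*KO library was at 0 counts of *Pcna*, so the direction turned and no size can be given.

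A part of *Pcna* cannot be told from its processed pseudogene *Pcna-ps2* (chr19:9283380-9284160, plus strand) by reads of 75 bases. In the aligned 781 bases of the *Pcna* coding sequence, 775 (99.2%) were identical, with 6 mismatches and no gap. Of the 75-base windows of the principal *Pcna* transcript, 342 of 1444 (23.7%) occurred unchanged in *Pcna-ps2*. The stretch of both transcripts (GENCODE M21) that follows shows bases 118 to 177 of the coding sequence, with the 2 differences between them in capitals.
Pcna: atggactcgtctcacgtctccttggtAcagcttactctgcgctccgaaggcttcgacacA
Pcna-ps2: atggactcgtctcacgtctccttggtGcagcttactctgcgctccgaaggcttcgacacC

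*Pcna-ps2* was given 17 and 0 counts in WT1 and WT2 and 4, 0 and 33 in KO1, KO2 and KO3, so it had over 3 counts in the libraries rich in *Pcna* and in KO1. RSEM divides reads that match several transcripts by an estimate, so the counts of *Pcna* and its copy are uncertain by that division. *Stmn1* shared 301 of 986 windows (30.5%) with *Gm11223*, which had 0, 5, 0, 0 and 10 counts in the order WT1, WT2, KO1, KO2, KO3. *Ccnb1* shared 849 of 2415 (35.2%) with 5 pseudogenes, 2 of which had counts, *Gm8416* (9 in WT1 and 11 in KO1) and *Gm4870* (6 in KO1 and 3 in KO3). *Mki67* shared 20 of 9987 windows (0.200%) with *Gm44521*, which had no counts, and for the other 6 genes no window was shared. The related rows *Pcna-ps1* and *Ccnb1-ps* had 0 counts in all libraries. *Ube2c* overlaps *Tnnc2* on the opposite strand, which also had 0 counts throughout.

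The genes that drive cells into and through mitosis were at or near the detection limit. *Cdk1* (chr10:69335146-69352938, minus strand) had 12 counts in KO1 and 0 in the other 4 libraries. *Ube2c* (chr2:164769898-164778822, plus strand) had 11 counts in KO1 and 0 elsewhere. *Ccnb1* (chr13:100778650-100786570, minus strand) had 1 count, also in KO1. The kinase, its cyclin and the ubiquitin-conjugating enzyme were therefore seen only in the library that had low counts for the most genes.

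*Birc5* (chr11:117849251-117855743, plus strand) had 3 counts in WT2, 15 in KO1 and 0 in the other 3 libraries. *Top2a* (chr11:98992943-99024189, minus strand) had 4 counts in KO3 and 0 elsewhere. These 5 genes failed the filter on low counts, and for each the two-sided exact permutation test on log2 CPM gave p = 1, where 2 libraries against 3 allow no p below 0.1. A difference between the genotypes was not detected for them, and with so few counts and libraries its absence is not shown. Whether the low counts of KO1, the 1 to 15 of these genes included, came from transcripts of the sorted cells was not tested, and they are not read as expression here. Among all 21705 genes over 3 counts in any library, 75.7% were over it in KO1 and 23.1% to 31.9% in the others.

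*Mki67* (chr7:135689784-135716361, minus strand, 14 exons) had 3744 counts in WT2 and 0 in WT1, KO1, KO2 and KO3. A single library thus held all of its reads, at 108.6 CPM, and the other *Zeb1*WT/*Apoe*KO library lay with the *Zeb1*∆M/*Apoe*KO libraries at 0. It did not pass the filter on low counts of edgeR, and the two-sided exact permutation test gave p = 0.4. The call on *Mki67* depended on the tool. With all 10 genes kept in edgeR its adjusted p was 0.655, and with DESeq2 it was 3.13e-08. Without WT2, every library is at 0 and no difference can be computed.

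WT2 was also the library with the most T cell marker RNA. The summed level of 8 T cell markers was 6474 CPM of total counts in WT2, where all 8 had 100 counts or more, against 11.2 in WT1 and 1.15, 592 and 1685 in KO1, KO2 and KO3. These markers were thus high in the library that held *Mki67*. KO2 and KO3 also had T cell marker RNA, and had no *Mki67* counts. The 5 B cell markers summed to 0 CPM in WT2. The 10 macrophage markers summed to 29429 CPM in WT2 and to 6698 to 33756 CPM in the others. Most of each sum was *Lyz2*, with 22467 CPM in WT2 and 6631 CPM in KO1, where no other macrophage marker was above 43.8 CPM. T cells as a rule lack CD11b and F4/80, which are named for the sort. In WT2, single T cell markers ran from 45.4 CPM (*Cd3e*) to 2603 CPM (*Lck*). Macrophage markers other than *Lyz2* ran there from 0 (*Mertk*) to 2930 CPM (*Cd14*). The part of T cells in the *Mki67* counts was not tested, and in bulk RNA fewer cells of a type and less RNA per cell cannot be told apart.

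**Figure D2:**
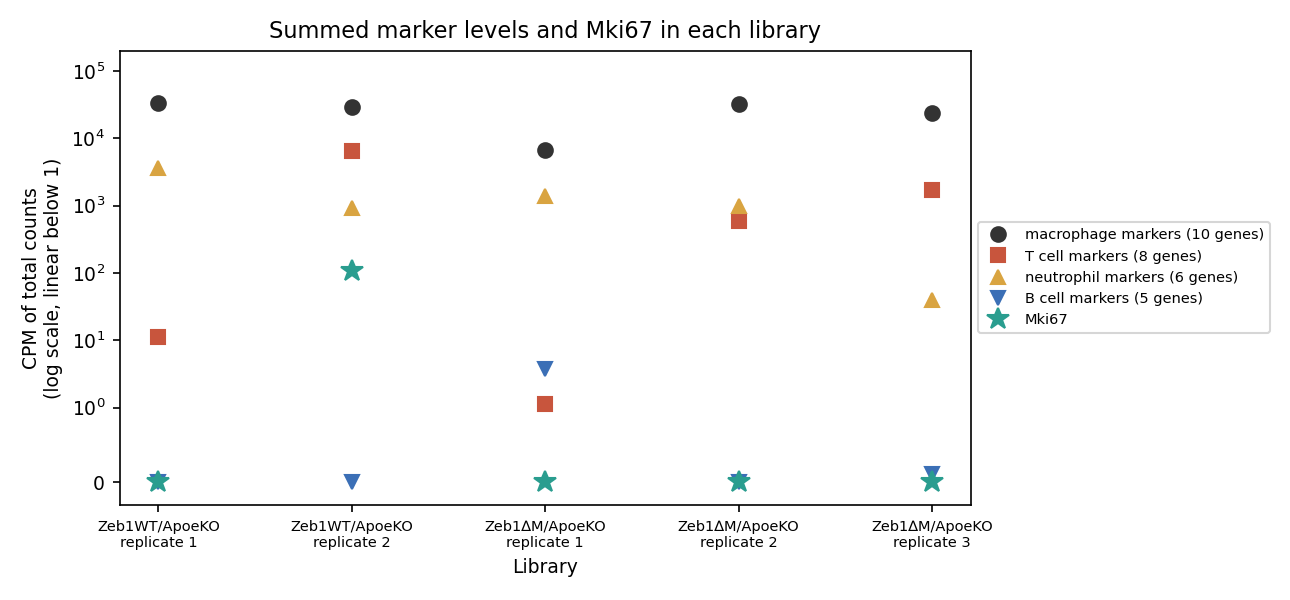
Summed CPM of total counts of the macrophage, T cell, neutrophil and B cell markers and the CPM of *Mki67* (vertical axis, log scale, linear below 1) in each of the 5 libraries (horizontal axis). *Mki67* is above 0 in *Zeb1*WT/*Apoe*KO replicate 2 alone, where the T cell markers also have their highest sum, 6474 CPM.

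The remaining lists of other cell types differed widely between libraries, and 1 of them, the endothelial list, was higher in both *Zeb1*WT/*Apoe*KO libraries than in every *Zeb1*∆M/*Apoe*KO library. The 6 neutrophil markers summed to 3591 and 919 CPM in WT1 and WT2 and to 1383, 1005 and 39.6 CPM in KO1, KO2 and KO3, while *Camp*, a granule gene of neutrophils, was at 0 throughout. Of the 6, *S100a9* alone had ranges that did not overlap, with 1465 and 317 CPM against 0, 117 and 20.6, while *S100a8* had 1683 and 341 CPM against 1359, 626 and 19.0. The 5 endothelial markers summed to 72.3 and 72.1 CPM in WT1 and WT2 and to 2.38, 0.168 and 51.9 CPM in KO1, KO2 and KO3, with *Cdh5* at 0 throughout. Nearly all of this was *Kdr* in WT1 and *Pecam1* in WT2 and KO3. The part of these cells in the values of the 10 genes was not tested. The 5 smooth muscle markers summed to at most 0.451 CPM. The 6 fibroblast markers reached 531 CPM in KO2 and at most 2.23 in the others, and the 5 dendritic cell markers 431 CPM in KO3 and at most 3.53 in the others. Each of these high sums was nearly all 1 gene, *Dcn* in KO2 and *Cd209a* in KO3, with *Lum*, *Col3a1*, *Flt3* and *Clec9a* at 0 in both libraries.

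*Stmn1* and *Tubb5*, which act on microtubules, were high in libraries of both genotypes. *Stmn1* (chr4:134468320-134473843, plus strand, 5 exons) had 0 and 3350 counts in WT1 and WT2 and 0, 1436 and 7454 in KO1, KO2 and KO3. It was at 0 in 1 library of each genotype, and the genotypes overlapped. The level was 48.6 ± 68.7 CPM (SD, n = 2) against 60.6 ± 77.8 CPM (SD, n = 3), with a log2 fold change of 0.32 and a standard error of 4.94 (edgeR, adjusted p = 1).

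*Tubb5* (chr17:35833921-35838306, minus strand, 4 exons) had 3770 and 8329 counts in WT1 and WT2 and 0, 15848 and 36918 in KO1, KO2 and KO3. KO2 and KO3 lay above both *Zeb1*WT/*Apoe*KO libraries and KO1 below them, so the genotypes overlapped. The level was 189 ± 74.4 CPM (SD, n = 2) against 368 ± 367 CPM (SD, n = 3), with a log2 fold change of 0.96 and a standard error of 3.80 (edgeR, adjusted p = 1). Leaving out KO1, the log2 fold change was 1.37 for *Tubb5* and 0.84 for *Stmn1*, and again no gene of the 10 was called. The sign turned elsewhere, to −0.56 for *Stmn1* without WT1 and to −1.54 for *Stmn1* and −0.041 for *Tubb5* without KO3. *Tubb5* was the member seen in the most libraries at 100 counts or more, all except KO1.

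The comparison over all genes called none of the 10. Of 7905 genes tested by edgeR, 0 (0%) had an adjusted p under 0.05, with 86 at an unadjusted p under 0.05. The 4 proliferation genes that passed the filter, *Pcna*, *Mcm2*, *Stmn1* and *Tubb5*, were among neither, with unadjusted p between 0.627 and 0.948 (edgeR). DESeq2 with default options called 790 of the 6497 genes (12.2%) to which it gave an adjusted p. Of the 10 genes, 4 had one and 1, *Mki67*, was called. With limma-voom, 234 genes and none of the 10 were called. Of the 790, 411 (52.0%) had 100 counts or more in a single library, as *Mki67* did.

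Ranges of the genotypes overlapped for all 10 genes. Of the 7905 tested genes, which include 4 of the 10, ranges did not overlap for 887 (11.2%). Those of the 10 that failed the filter had 0 counts in libraries of both genotypes. The two-sided exact permutation p was 0.7 for *Pcna*, 0.9 for *Mcm2*, 0.8 for *Stmn1* and 1 for *Tubb5*. The median log2 fold change was 0.64 over the 4 genes that passed the filter and 0.78 over all 7905. Against that overall shift, *Tubb5* lay 0.18 above and *Stmn1* −0.46 from the median. With RLE size factors the overall median was 1.24 and *Tubb5* lay at −0.73 from it, and with total counts it was 0.13 and *Stmn1* lay 0.21 above, so neither had a direction that held under all 3 scalings. *Pcna* lay below the median and *Mcm2* above it under all 3.

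Levels of the genes were compared per kilobase of exon. *Tubb5* was highest with 89.2 ± 84.2 CPM per kb (SD, n = 5), followed by *Pcna* with 47.2 ± 77.2, *Stmn1* with 29.0 ± 33.9 and *Mki67* with 2.16 ± 4.83. *Mcm2* had 0.126 ± 0.210, *Birc5* 0.0779 ± 0.160, *Ube2c* 0.0698 ± 0.156 and *Cdk1* 0.0401 ± 0.0898 CPM per kb, with *Ccnb1* at 0.00391 ± 0.00875 and *Top2a* at 0.00177 ± 0.00395. No neighbours in this order differed beyond their spread, as each SD but that of *Tubb5* was larger than its mean. The order also changed between libraries. *Pcna* led in WT1 with 178 CPM per kb against 41.0 for *Tubb5*, *Tubb5* led in WT2, KO2 and KO3, and *Mcm2* led in KO1.

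**Figure D3:**
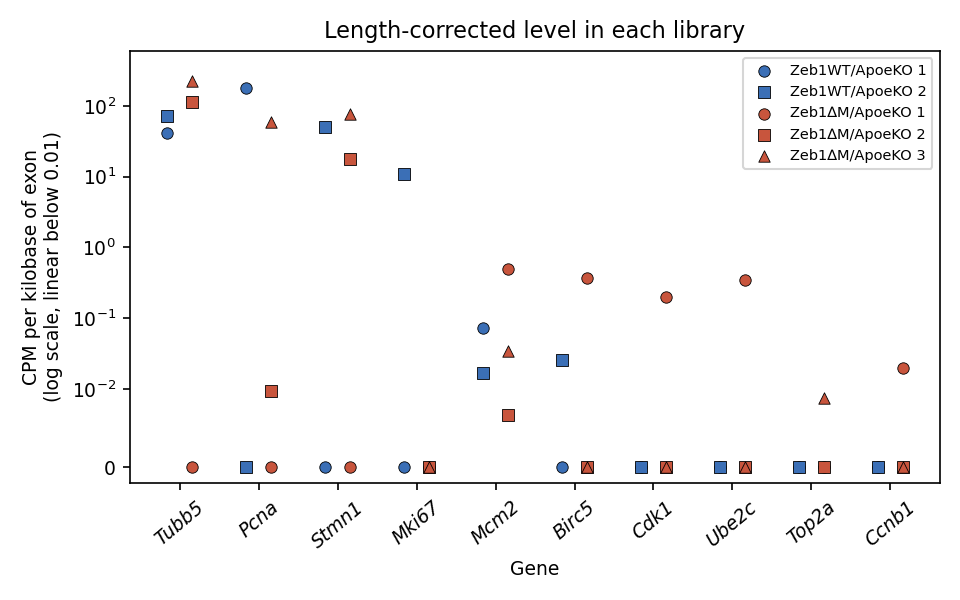
Level of each of the 10 genes per kilobase of exon (vertical axis, CPM per kb, log scale, linear below 0.01) in each library, blue for *Zeb1*WT/*Apoe*KO and red for *Zeb1*∆M/*Apoe*KO, with a marker shape per replicate. Points at 0 lie over each other. *Tubb5* reaches 221 CPM per kb in *Zeb1*∆M/*Apoe*KO replicate 3 and is at 0 in *Zeb1*∆M/*Apoe*KO replicate 1.

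Genes of the wider cell cycle were read from lists that hold none of the 10. Of 158 genes in 9 lists, 124 had over 3 counts in at least 1 library, 66 passed the filter and 0 were called by edgeR, with 0 at an unadjusted p under 0.05. Of these 66, 31 had a log2 fold change above 0 and the median was −0.18, beside 60.9% above 0 and a median of 0.78 over all tested genes. DESeq2 called 6 of the 59 list genes to which it gave an adjusted p, beside 12.2% of all genes. These were *Mcm6*, *Gins4*, *Lig1*, *Ccnf*, *Cdc20* and *Fzr1*, each with 100 counts or more in a single library. Ranges of the genotypes were apart for 1 of the 66, *Fzr1*, an activator of the anaphase-promoting complex, with 0 and 0 counts against 29, 6 and 1474, beside 11.2% of all tested genes.

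Among the lists, the 33 genes of DNA replication had 8 that passed the filter, with a median log2 fold change of 0.49, and the 12 of S phase chromatin had 8, with a median of 2.06. The 14 regulators of G1 and of the entry into S phase had 7 (median 1.88), and the 18 of mitotic entry and its checkpoint had 6 (median 1.92). The 28 genes of the spindle, kinetochore and cytokinesis had 6 (median −2.44), and the 17 of the anaphase-promoting complex had 11 (median −1.48). The 16 tubulins and stathmins other than *Tubb5* and *Stmn1* had 8 (median −1.82), none of them with an estimate above 0. For the 12 CDK inhibitors and pocket proteins 6 passed (median 0.42), and for the 8 macrophage mitogens and receptors 6 (median 0.79). No list gene passed the edgeR test in either direction. The medians are of the few genes that passed the filter, and are not read as a shift of a list. Among the mitotic entry genes, estimates ran from −10.1 for *Mybl2* (standard error 5.29) to 14.9 for *Ccnf* (standard error 8.69). *Cdc20*, with 9166 counts in WT2 and 0 elsewhere, did not pass the filter. *Aurka*, with 17 counts in KO1, 52 in KO2 and 0 elsewhere, did.

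Of the replication, mitosis and spindle genes, those that reached 100 counts mostly did so in 1 library each. Of the 79 genes, 23 had 100 counts or more in some library, 45 had lower counts only and 11 had none. Of the 23, 17 (73.9%) reached 100 in exactly 1 library, against 3579 of 7341 (48.8%) of all genes. Over all 9 lists it was 37 of 70 (52.9%), and over the 10 proliferation genes 1 of 4 (25%). These differences were not tested. Of the 17, 10 were in WT2, 2 in WT1, 0 in KO1, 2 in KO2 and 3 in KO3. Of the 3579, 1363 were in WT2, 257 in WT1, 199 in KO1, 671 in KO2 and 1089 in KO3. Those of WT2, the library that held *Mki67*, included *Tpx2* with 8402 counts and *Cdc20* with 9166, genes of the spindle and of the exit from mitosis, and *Mcm6* with 609, which were chosen after their values were seen. WT2 was the library with the most genes of all kinds at 100 counts or more, 60.2% of the 7341, and for these 23 genes its share was 60.9%. In KO3, the shares were 56.4% of all genes and 34.8% of the 23, and in KO2 they were 43.2% and 26.1%.

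**Figure D4:**
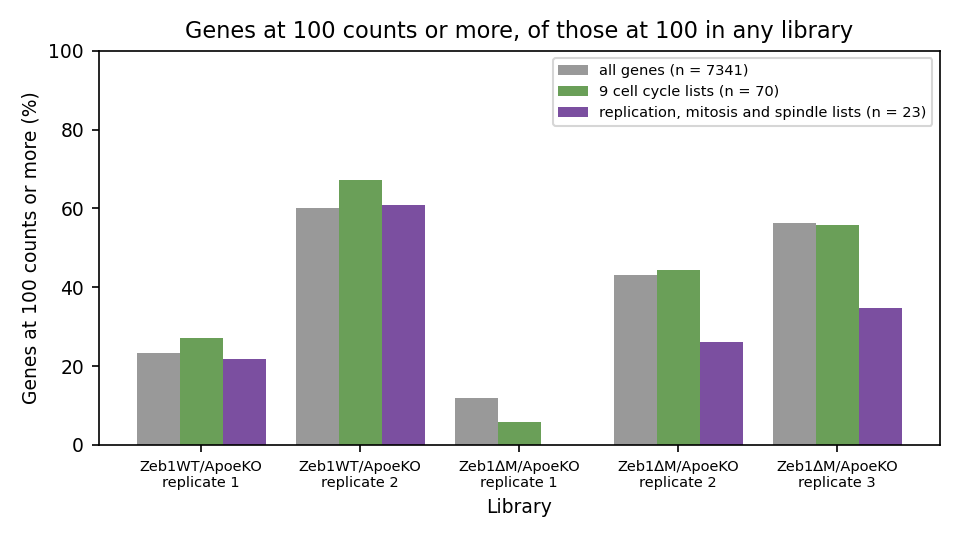
Share of genes with 100 counts or more in each library (vertical axis, percent, from 0), among the genes that reached 100 counts in any library, for all genes (n = 7341), the 9 cell cycle lists (n = 70) and the replication, mitosis and spindle lists (n = 23). For the last of these the bars run from 0% in *Zeb1*∆M/*Apoe*KO replicate 1 to 60.9% in *Zeb1*WT/*Apoe*KO replicate 2.

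Of the list genes, 16 had over 3 counts in all 5 libraries, which none of the 10 proliferation genes did. They were mostly genes that cells outside division also express. *H2az1*, a histone variant, had 22430 and 51471 counts in WT1 and WT2 and 5, 64757 and 66737 in KO1, KO2 and KO3. *Tuba1b*, an alpha tubulin that pairs with TUBB5, had 158 and 23070 counts against 48, 30609 and 13205. Both were low in KO1, as *Tubb5* was, and overlapped between the genotypes. *Hmgb1*, a chromatin protein, had 7 and 25937 counts against 84555, 17997 and 53030, and *Tmpo*, a nuclear lamina protein, had 1893 and 652 against 37911, 551 and 10831. These were high in KO1, so that library was not low for every gene.

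*Csf1r*, the receptor for the main growth factor of macrophages, had 502 and 9214 counts against 25, 26412 and 47592, with a log2 fold change of 1.87 and a standard error of 3.75 (edgeR, adjusted p = 1). *Ccnd2*, a cyclin that carries the growth signal into G1, had 334 and 2500 counts against 16, 2768 and 5419, and its partner *Cdk6* had 638 and 2409 against 17, 2806 and 20694. The receptor, the cyclin and its kinase were each lowest in KO1 and highest in KO3. *Cdkn1a*, an inhibitor of cyclin-dependent kinases, had 15356 and 5153 counts against 11, 17078 and 7441, and *Cdkn1b*, a second inhibitor, had 238 and 70 against 303, 33 and 394. *Btg1* and *Btg2*, which restrain division, had 25882 and 5835 against 725, 6701 and 17039 counts, and 12533 and 15181 against 34, 22220 and 36926 counts. The inhibitors and *Btg* genes were therefore read in libraries without *Mki67* or *Cdk1* counts, and their genotypes overlapped.

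The other 5 of these genes also overlapped between the genotypes. *Rfc2*, which loads PCNA onto DNA, had 4 and 4721 counts against 5, 4167 and 471. Its reads were thus high in WT2 and KO2, where *Pcna* had 0 and 1 counts. *Cks2*, a partner of CDK1, had 12237 and 1728 counts against 4, 10430 and 6779, and *Anapc13*, a subunit of the anaphase-promoting complex, 1100 and 1006 against 4, 2863 and 4573. Their partners *Cdk1* and *Ube2c* were at 0 in all libraries where these 2 were high. *Tuba1a* had 12 and 8683 counts against 36, 8 and 4, and *Tuba1c* 44526 and 7153 against 16, 403 and 11542. The log2 fold changes of all 16 lay between −6.87 (*Tuba1a*, standard error 5.80) and 4.68 (*Tmpo*, standard error 3.81), each with an adjusted p = 1 by edgeR.

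Summed over the 10 proliferation genes, the libraries differed more than the genotypes. Their summed level was 773 and 446 CPM of total counts in WT1 and WT2 and 3.32, 483 and 1016 in KO1, KO2 and KO3. KO1 was lowest and KO3 highest, with both *Zeb1*WT/*Apoe*KO libraries between them. Without *Tubb5* the sums were 11787 and 7101 counts against 81, 1439 and 14535, made of *Pcna* almost alone in WT1, of *Mki67* and *Stmn1* in WT2, of *Stmn1* in KO2 and of *Pcna* and *Stmn1* in KO3. No pair of libraries of 1 genotype had 100 counts or more for the same set of the 10 genes.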

How the data were processed

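RNAseq libraries of sorted aortic macrophages were assigned to 2 genotypes from their labels. The authors mapped 2 × 75-base reads to GRCm38 with STAR 2.5.3a, estimated gene counts with RSEM 1.3.0 and a GENCODE mouse annotation, and deposited the counts as whole numbers without normalization or a filter on genes. The versions come from the submitters' processing notes. The kit does not mark strand.

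Counts were tested with edgeR 4.0.16 in R 4.3.3 (filterByExpr with a minimum count of 10, TMM, quasi-likelihood test, no covariates, Benjamini-Hochberg adjustment over 7905 genes, call at 0.05). Total counts were 20118545 to 50649912 per library, and the common dispersion was 6.44. Detection meant over 3 counts, and log2 CPM used a prior count of 2. Single genes had a two-sided exact permutation test over libraries. The edgeR test was tested on simulated data, where it made no calls at the spread of these libraries, so the absence of a call does not show that a gene did not differ. Named genes are the 10 proliferation genes, list genes over 3 counts in all libraries or called by edgeR, and rows named as copies of the 10, of which 1 is not reported here. Other genes were chosen after their values were seen. The 10 genes, lists and alternatives were chosen with earlier results of these data known. Of the lists, *H2afz* and *H2afx* were matched under the symbols *H2az1* and *H2ax*.

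Alternatives were DESeq2 1.42.0 (the study's tool), limma-voom (limma 3.58.1) with sample weights, RLE size factors, total counts, no filter, a minimum of 10 counts in all libraries, a replicate block, and each library left out. Leaving out both replicate 1 libraries was added after seeing the data. Positions, exon lengths and transcripts are GENCODE M21 on GRCm38, whose identifiers for the 10 genes had the same versions as the table. Figures used Python 3.11.15 and matplotlib 3.10.9.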

Additional observations from a re-analysis of the deposited data

How the results depend on the processing

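The count of genes called by edgeR was 0 in the test as reported and moved to 790 with DESeq2, to 234 with limma-voom and to 2 without both replicate 1 libraries, an alternative added after seeing the data. It was 0 each time a library was left out, and for the 10 proliferation genes it moved only with DESeq2, to 1 (*Mki67*), and for the list genes only with DESeq2, to 6. The direction of every tested proliferation gene turned under some alternative. The log2 fold change of *Pcna* ran from −3.15 to 13.76 when 1 library was left out, with the positive value without WT1, and was 14.59 without both replicate 1 libraries. That of *Stmn1* ran from −1.54 to 14.06 (without WT2), being negative without WT1 and without KO3, and that of *Tubb5* from −0.041 to 1.46. That of *Mcm2*, 1.99 as reported, ran from 0.73 without WT2 to 3.11 without WT1, and was 0.72 with total counts, 0.54 with no filter, 0.84 with the replicate block and −0.082 with limma-voom. The values of 13.76, 14.59 and 14.06 are against a genotype left at 0 counts, so the prior count sets them and they give no size. Where 1 *Zeb1*WT/*Apoe*KO library remained, it was assumed to vary like the others. With at least 10 counts in every library, none of the 10 genes could be tested.

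Replicate numbers 1 and 2 occur in both genotypes. The difference between them correlated between genotypes with r = 0.18 across genes. With only 2 shared numbers, this cannot show whether the samples share more than a number. With the replicate block, edgeR called 0 genes, and the log2 fold change was −6.67 for *Pcna*, −1.25 for *Stmn1* and −5.79 for *Tubb5*. With limma-voom it was −0.076 for *Pcna* and 5.25 for *Stmn1*. The cause of these changes was not tested.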
